A study of Rattus norvegicus with 6 samples.

Results

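The genes described here encode the fibrous matrix and cell markers of fibroblasts and of the meninges, the connective tissue sheaths around the spinal cord. They were listed by name, with earlier results of these data known: 39 genes, of which all 39 were measured, among 14217 genes in all. Shares of all genes stand beside the counts as a description and do not test the list. Where several probe sets measured a gene, the brightest over the 6 arrays was used, out of 60 probe sets that the annotation pairs with one of these genes alone. Expression is on the log2 scale, on which a difference of -1 is a fold of 0.5, and SE is the standard error of a fold change.

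Total RNA came from dissociated spinal cord cultures of rats aged 1 to 4 postnatal days, kept for 8 days in vitro in medium with horse serum and a low concentration of nerve growth factor. The 3 control cultures grew on glass coated with polyornithine and the 3 CNT cultures on glass covered with a film of multiwalled carbon nanotubes, and no genetic change or other agent separates the groups. The labels give the strain as Sprague-Dawley, whereas the paper's methods give Wistar. The cultures are mixed: neurons grow there together with glia and further non-neuronal cells, so that in these bulk samples fewer cells of a type and less RNA per cell cannot be told apart.

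Collagens are triple helical proteins that fibroblasts secrete as precursors. Types I, III and V assemble into fibrils, type IV forms the sheet of the basement membrane, and types VI and XII link fibrils to their surroundings. Small leucine-rich proteoglycans bind the surface of the fibrils, elastin is laid on a scaffold of fibrillin and fibulins, and lysyl oxidases cross-link both. In the healthy cord such genes are expressed mainly in the meninges and around vessels, and cells of the sheaths can be carried over when neonatal cord is dissociated. Several of them, such as Sparc, Fn1 and the type IV collagens, are also made by glia or endothelial cells.

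In CNT cultures the matrix genes had lower means, but the size of the difference depended on which CNT cultures were included. Of the 39 genes, 38 had a negative log2 fold change (CNT minus control), against 41.5% of all genes, and the median was -0.64 (0.03 over all genes). No member passed an adjusted p of 0.05 in limma (adjusted p = 0.999 for each), and no gene of the 14217 did (0%). At an unadjusted p under 0.05, limma gave 4 members lower, Fbln2, Fbln5, Fmod and Serpinf1, and none higher. Of all genes, 0.71% were lower and 2.41% higher at that level. Confidence intervals are printed below for these 4 only. They exclude 0 through that choice and are not adjusted for the number of genes tested. The intervals of the other 35 members include 0. The mean fold was below 0.5 in 11 members, against 0.274% of all genes, and above 2 in none (0.746% of all genes). Leaving out CNT 2 brought the first of these counts to 0, whereas it was 22 when CNT 3 and 13 when CNT 1 was left out. The share of all genes below this fold was not counted with an array left out.

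The mean over the 39 genes was 12.28, 11.85 and 11.82 in control cultures 1, 2 and 3, and 11.42, 10.36 and 11.95 in CNT cultures 1, 2 and 3. CNT 2 lay below every other culture, CNT 1 below all controls, and CNT 3 within the range of the controls. The difference between the group means was -0.74, with an SD of 0.26 among control and 0.81 among CNT cultures (n = 3 each). Relative to the control mean, the module mean of CNT 1, CNT 2 and CNT 3 was -0.56, -1.63 and -0.04. CNT 2 had the lowest value of the 6 arrays in 38 members (14.2% of all genes), and lay below every control in the same number (18.8% of all genes). CNT 1 lay below every control in 32 (16.1% of all genes), in each of which CNT 2 did too (8.17%), within their range in 6 (56.6%) and above them in 1, Dpt (27.3%). Control 1 was the highest of the 6 arrays in 27 members (20.2% of all genes) and CNT 3 in 8 (20.3%). All CNT cultures lay below all controls in 4 members, Col4a1, Fmod, Fbln2 and Fbln5 (2.05% of all genes), and above all controls in no member (5.94% of all genes). CNT 3 was within the range of the controls in 24 members (46.6% of all genes), below it in 7 (25.5%) and above it in 8 (28%). The SD was larger among CNT than among control cultures in 37 members, against 51.8% of all genes, and not in Fmod and Fbln5. The median log2 fold change of the members was -0.24 without CNT 2 and -1.05 without CNT 3 (0.02 and 0.05 over all genes). Of the 39 members 33 and 38 were then negative, and the share of all genes was not counted. At an unadjusted p under 0.05 limma gave 1 member lower without CNT 2 and 26 without CNT 3, where 0.373% and 2.9% of all genes were lower. The count was also 1 without control 1 and 1 without control 2 (0.45% and 0.809% of all genes). It was 4 without control 3 and 4 without CNT 1 (1.53% and 0.542%). With arrays weighted in the fit it was 15 (1.57%).

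**Figure D1:**
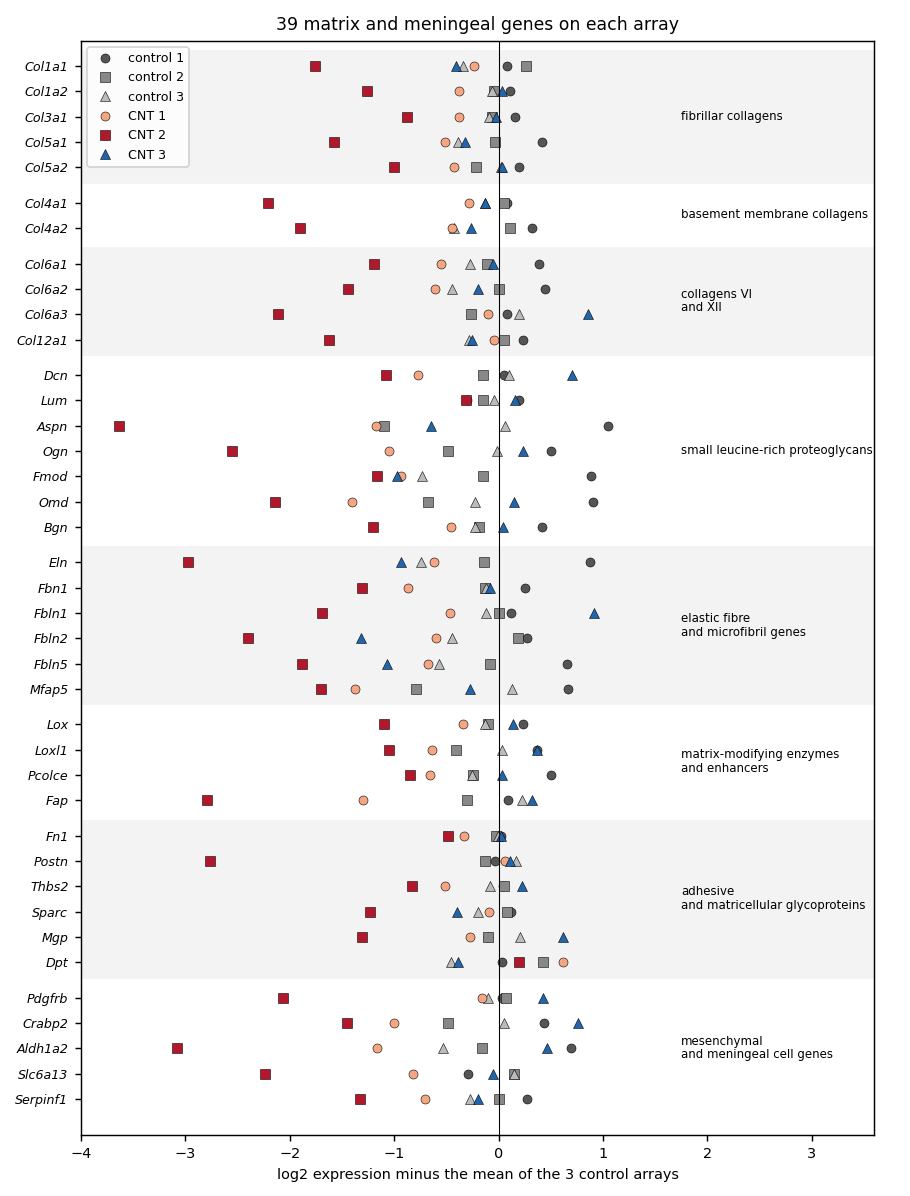
Log2 expression of the 39 genes on each array (x axis), minus the mean of the 3 control arrays, with genes grouped by role (y axis) and grey symbols for the control cultures. CNT 2 (red squares) is the lowest array for 38 genes, while CNT 3 (blue triangles) lies within the range of the controls for 24.

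Signal at the 3' end of the beta-actin transcript, relative to its 5' end, grows as RNA degrades. The difference between both ends was 2.20, 0.62 and 0.66 log2 in control cultures 1 to 3 and 0.92, 2.20 and 1.72 in CNT cultures 1 to 3. It was largest in control 1 and CNT 2, the cultures with the highest and the lowest module mean. The same difference for GAPDH was also largest there, at 0.82 and 0.59. With the beta-actin difference as a covariate the median log2 fold change of the members was -0.65. Without control 1 and CNT 2 the median was -0.12 (0.03 over all genes), and 28 of the 39 members were negative. The share of all genes that were negative was not counted under this setting. The part of RNA degradation in the result was not tested. The 13 measured of 14 listed markers of microglia and macrophages, of which 12 had a positive log2 fold change, had a mean between 11.59 and 12.28 in control and between 11.99 and 12.61 in CNT cultures. It was lowest in control 1 and highest in CNT 2, the reverse of the module mean at both ends. Aif1, Cd68 and Itgam, which define these cells, were among those measured. The mean of 11 endothelial markers, all with a positive log2 fold change, was also lowest in control 1 and highest in CNT 2, at -0.14 and 0.39 relative to the control mean. Of all 14217 genes, 8318 had a positive log2 fold change. The endothelial markers were dim, with a mean of 7.53 in control cultures, against 9.31 over all genes. The part of microglia and of endothelial cells in the result was not tested.

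The promoters of the genes whose groups did not overlap are printed here, with that of Aspn, the member with the lowest fold. RefSeq (GRCr8) gave a promoter for 25 of the 39 members by gene ID. The sequences run 5' to 3' over the 250 bases before the start of the gene. For Col4a1 and Col4a2, which are transcribed away from each other, they show the 76 bases between the 2 starts. Capitals mark GC boxes (GGGCGG or CCGCCC on the other strand), CCAAT boxes (CCAAT or ATTGG) and TATA boxes (TATAAA or TTTATA). No marked motif overlaps another in these windows.
Fbln2 (chr4:125261409-125261658, plus strand): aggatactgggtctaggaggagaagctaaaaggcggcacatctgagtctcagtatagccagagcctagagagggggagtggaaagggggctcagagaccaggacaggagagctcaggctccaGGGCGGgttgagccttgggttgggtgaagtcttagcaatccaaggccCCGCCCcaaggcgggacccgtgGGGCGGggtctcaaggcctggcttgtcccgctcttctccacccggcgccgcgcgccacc
Fbln5 (chr6:126742707-126742956, minus strand): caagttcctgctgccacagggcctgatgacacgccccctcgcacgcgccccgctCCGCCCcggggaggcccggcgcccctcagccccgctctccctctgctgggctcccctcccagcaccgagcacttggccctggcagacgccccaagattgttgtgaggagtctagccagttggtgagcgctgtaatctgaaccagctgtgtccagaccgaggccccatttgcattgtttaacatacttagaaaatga
Fmod (chr13:48045317-48045566, plus strand): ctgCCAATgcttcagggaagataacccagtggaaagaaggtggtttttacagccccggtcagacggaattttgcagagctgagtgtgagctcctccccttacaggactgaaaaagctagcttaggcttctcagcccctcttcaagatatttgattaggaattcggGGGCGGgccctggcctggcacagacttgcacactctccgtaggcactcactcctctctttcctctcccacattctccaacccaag
Aspn (chr17:15310470-15310719, minus strand): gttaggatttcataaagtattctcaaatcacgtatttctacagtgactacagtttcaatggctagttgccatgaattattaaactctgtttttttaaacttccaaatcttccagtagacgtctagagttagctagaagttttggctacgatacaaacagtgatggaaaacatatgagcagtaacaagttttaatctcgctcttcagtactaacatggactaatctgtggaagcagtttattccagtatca
Col4a1 and Col4a2 (chr16:84885521-84885596, plus strand): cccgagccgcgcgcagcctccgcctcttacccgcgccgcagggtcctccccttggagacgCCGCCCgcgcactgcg

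The 250 bases before Fbln2 hold 3 GC boxes and those before Fbln5 and Fmod 1 each, with a CCAAT box in Fmod. The Aspn window holds none of these motifs and has a GC content of 34.8%, against 64% for Fbln2 and 63.2% for Fbln5. Of the 25 promoters, 8 (32%) hold a GC box, 8 (32%) a CCAAT box and 5 (20%) a TATA box, where 32.4%, 34.3% and 13.1% of 27457 promoters do. These matches describe the letters of the windows only.

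The fibrillar collagens, which build the fibrils of connective tissue, all had lower means in CNT cultures, with log2 fold changes from -0.80 to -0.43 and a median of -0.54. Col3a1, the chain of type III collagen, had a log2 expression of 14.49, 14.26 and 14.24 in control cultures and of 13.95, 13.45 and 14.30 in CNT cultures. CNT 3 lay among the controls and both other CNT cultures below them, and the log2 fold change was -0.43 (SE 0.23). Col1a1, the alpha 1 chain of type I collagen, had a log2 fold change of -0.80 ± 0.42 (SE), which was -0.32 without CNT 2. Col1a2, its partner chain, had a log2 fold change of -0.54 ± 0.32 (SE). Col5a1 and Col5a2, whose type V collagen starts the fibrils, had log2 fold changes of -0.80 ± 0.38 and -0.46 ± 0.27 (SE). Without CNT 2 all 5 were still negative, between -0.42 and -0.18.

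Col4a1 and Col4a2 encode the chains of the basement membrane collagen and are neighbours on the chromosome. Col4a1 had a log2 expression of 12.96, 12.93 and 12.74 in control and of 12.59, 10.67 and 12.74 in CNT cultures. The groups did not overlap, but by a margin far under the spread between cultures, with CNT 3 at 12.7423 and control 3 at 12.744. The log2 fold change was -0.88 (SE 0.55), and -0.21 without CNT 2. That of Col4a2 was -0.87 (SE 0.46), and -0.36 without CNT 2. Col6a1 and Col6a2, also neighbours, encode chains of the beaded filaments of type VI collagen, and had log2 fold changes of -0.60 ± 0.32 and -0.75 ± 0.37 (SE). Col6a1 was at 12.42, 11.92 and 11.75 in control and at 11.48, 10.84 and 11.98 in CNT cultures, and only CNT 3 overlapped with the controls. Col6a3, the third chain, differed from these, with CNT 3 above every control (log2 fold change -0.45, SE 0.72, and 0.38 without CNT 2). Col12a1, a collagen bound to the surface of fibrils, had a log2 fold change of -0.64 ± 0.42 (SE).

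The small leucine-rich proteoglycans held the lowest fold of the 39, that of Aspn, and also Lum, with 1 of the smallest differences. Their median log2 fold change was -1.02, from -1.82 to -0.15 over 7 genes. Aspn encodes asporin, which binds collagen and TGF-beta. It had a log2 expression of 10.08, 7.94 and 9.10 in control and of 7.86, 5.40 and 8.39 in CNT cultures. CNT 2 was far below the rest, CNT 1 just below control 2, and CNT 3 between 2 controls. The fold was 0.283 (log2 fold change -1.82, SE 0.90), the second lowest log2 fold change of the 14217 genes, and the log2 fold change was -0.91 without CNT 2. The signal of Aspn was rather dim: only 39.7% of probe sets were dimmer on average, and CNT 2 was its dimmest culture, at 5.40.

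Aspn, Omd and Ogn lie next to each other on the chromosome. Ogn (osteoglycin) was at 13.24, 12.25 and 12.72 in control and at 11.68, 10.19 and 12.97 in CNT cultures. Omd (osteomodulin) was at 9.87, 8.28 and 8.74 in control and at 7.56, 6.82 and 9.11 in CNT cultures. In both, CNT 1 and CNT 2 lay below all controls and CNT 3 between the highest controls, and the log2 fold changes were -1.12 (SE 0.69) and -1.13 (SE 0.67).

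Fmod encodes fibromodulin, which regulates the thickness of fibrils, and was 1 of the 4 members whose groups did not overlap. It had a log2 expression of 13.07, 12.03 and 11.44 in control and of 11.25, 11.02 and 11.21 in CNT cultures. The 3 CNT cultures lay close together while the controls spread widely, with SDs of 0.12 and 0.82. The log2 fold change was -1.02 (SE 0.40, 95% confidence interval -1.99 to -0.06), and it was -0.58 without control 1. Dcn and Lum, neighbouring genes of decorin and lumican, had log2 fold changes of -0.38 ± 0.46 and -0.15 ± 0.17 (SE). For Lum this came from 13.12, 12.77 and 12.88 in control and 12.62, 12.62 and 13.08 in CNT cultures, so that CNT 1 and CNT 2 were almost the same. Bgn (biglycan) had a log2 fold change of -0.54 ± 0.35 (SE).

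**Figure D2:**
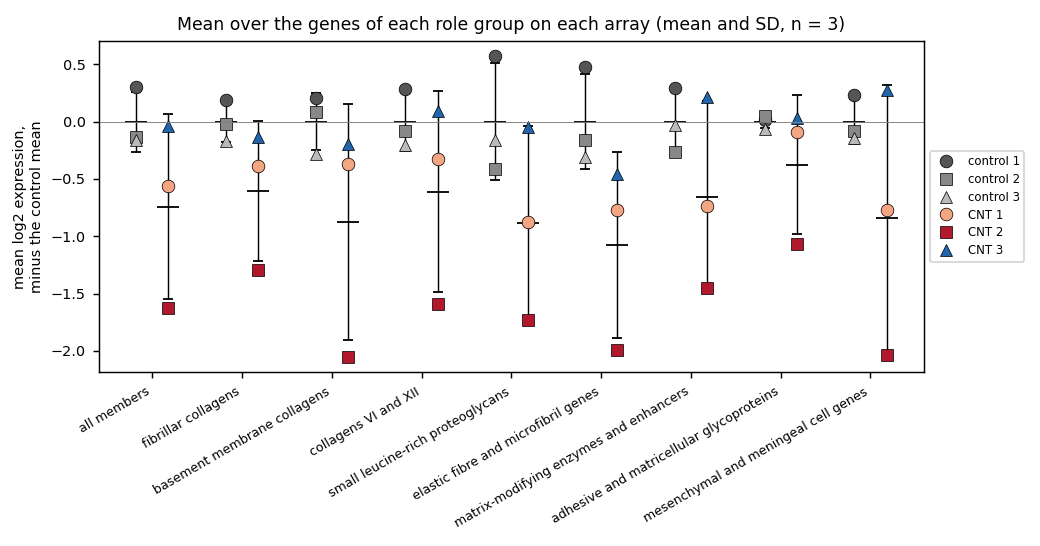
Mean log2 expression over the genes of each role group (x axis) on each array, minus the mean of the 3 control arrays (y axis). Symbols are single cultures, horizontal lines show each group's mean and vertical bars its SD (n = 3). The elastic fibre genes are the group in which CNT 3 lies lowest, at -0.46.

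The genes of elastic fibres had a median log2 fold change of -1.16 over 6 genes, and of -0.80 without CNT 2. Fbln2 (fibulin 2), which bridges fibrillin and the basement membrane, was at 12.47, 12.39 and 11.76 in control and at 11.60, 9.80 and 10.89 in CNT cultures. All CNT cultures lay below all controls, and the log2 fold change was -1.44 (SE 0.47, 95% confidence interval -2.58 to -0.31). Fbln5 (fibulin 5), which brings elastin onto the microfibrils, was at 11.65, 10.91 and 10.42 in control and at 10.31, 9.10 and 9.93 in CNT cultures. Its groups did not overlap either, with a log2 fold change of -1.21 (SE 0.42, 95% confidence interval -2.22 to -0.20). Without CNT 2 the log2 fold changes of Fbln2 and Fbln5 were -0.96 and -0.87, which with Fmod (-0.95) and Aspn (-0.91) were the 4 lowest of the members.

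Eln (elastin itself) was at 11.88, 10.86 and 10.26 in control and at 10.38, 8.02 and 10.06 in CNT cultures. CNT 1 overlapped with the controls, and the log2 fold change was -1.51 (SE 0.71). Fbn1, the fibrillin of the microfibrils, was at 13.13, 12.75 and 12.75 in control and at 12.01, 11.57 and 12.80 in CNT cultures (log2 fold change -0.75, SE 0.32). Mfap5, a glycoprotein of the microfibrils, was at 12.20, 10.74 and 11.66 in control and at 10.16, 9.83 and 11.26 in CNT cultures (log2 fold change -1.12, SE 0.50). In both, CNT 3 lay among the controls and the other CNT cultures below them. Fbln1, the third fibulin, had a log2 fold change of -0.41 ± 0.62 (SE), with CNT 3 above all controls. It was 0.23 without CNT 2.

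Among the enzymes and enhancers that modify the matrix, the median log2 fold change was -0.47 over 4 genes. Lox (lysyl oxidase) was at 13.61, 13.27 and 13.25 in control and at 13.04, 12.28 and 13.52 in CNT cultures, with CNT 3 among the controls and the other CNT cultures below them. Its log2 fold change was -0.43 (SE 0.32), close to that of its relative Loxl1 (-0.44, SE 0.39), and that of Pcolce, which enhances the cleavage of procollagen, was -0.49 (SE 0.31). Fap, a surface protease of activated fibroblasts, was at 10.19, 9.79 and 10.32 in control and at 8.80, 7.31 and 10.42 in CNT cultures. CNT 3 was its highest and CNT 2 its lowest culture, 3.12 log2 apart, and the log2 fold change was -1.26 (SE 0.74).

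The adhesive and matricellular glycoproteins had a median log2 fold change of -0.34 over 6 genes, and of -0.03 without CNT 2. Fn1 (fibronectin), to which integrins attach, was at 13.88, 13.84 and 13.86 in control and at 13.53, 13.37 and 13.88 in CNT cultures. The SD of the controls was 0.02, CNT 3 lay among them and the other CNT cultures below, and the log2 fold change was -0.27 (SE 0.15). Postn (periostin) had a log2 fold change of -0.87 ± 0.77 (SE), which came from CNT 2 alone: relative to the control mean, CNT 1 was at 0.06, CNT 3 at 0.10 and CNT 2 at -2.76. Sparc, a collagen-binding glycoprotein, had a log2 fold change of -0.57 ± 0.30 (SE), and Thbs2, a thrombospondin, of -0.37 (SE 0.27). Mgp (matrix Gla protein), an inhibitor of calcification, had a log2 fold change of -0.32 ± 0.46 (SE), and 0.18 without CNT 2. Dpt (dermatopontin) was the 1 member with a positive log2 fold change, 0.14 (SE 0.32). Its signal was dim: 35.4% of probe sets were dimmer, and it was left out with Slc6a13 by a filter on the dimmest 30% of genes, which 37 members passed.

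Of the genes that mark the cells themselves, all 5 had negative log2 fold changes (median -0.74). Without CNT 2 the median was -0.35, and Pdgfrb was at 0.13. Aldh1a2, the retinoic acid synthesizing enzyme of the meninges, was at 11.96, 11.10 and 10.73 in control and at 10.10, 8.18 and 11.73 in CNT cultures. The SD was 0.63 among control and 1.77 among CNT cultures, and the log2 fold change was -1.26 (SE 0.88), or -0.35 without CNT 2. Slc6a13, a GABA transporter of the meninges, was at 8.22, 8.66 and 8.67 in control and at 7.70, 6.27 and 8.46 in CNT cultures (log2 fold change -1.04, SE 0.54). CNT 3 lay among the controls in both. Serpinf1, the gene of pigment epithelium-derived factor, was at 12.77, 12.51 and 12.22 in control and at 11.80, 11.17 and 12.30 in CNT cultures. Its groups overlapped at CNT 3, with a log2 fold change of -0.74 (SE 0.30, 95% confidence interval -1.48 to -0.01). Crabp2, which carries retinoic acid in the cell, had a log2 fold change of -0.57 ± 0.59 (SE). Pdgfrb, the PDGF receptor of mural cells and fibroblasts, had one of -0.60 ± 0.61 (SE). CNT 3 lay above all controls in both, for Pdgfrb on the brightest probe set only. On its other probe sets CNT 3 was at 9.23 (controls 9.26, 8.26 and 9.28) and at 8.46 (controls 8.62, 7.81 and 8.64).

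**Figure D3:**
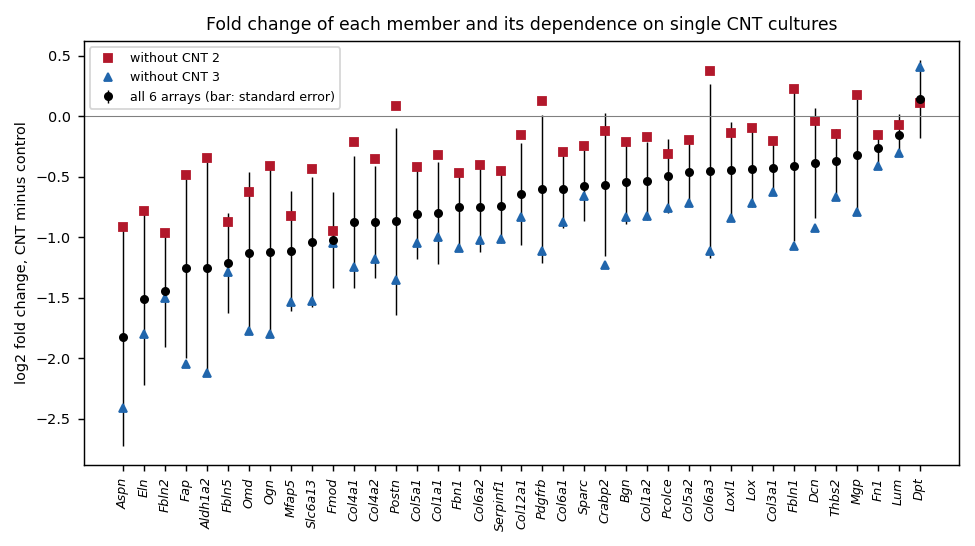
Log2 fold change (y axis, CNT minus control) of each member (x axis, lowest first) over all arrays with its SE (black), without CNT 2 (red squares) and without CNT 3 (blue triangles). Without CNT 2 the values lie between -0.96 and 0.38, and without CNT 3 between -2.41 and 0.41.

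CNT 3 left the range of the controls downward in some of the 39 genes and upward in others. CNT 3 lay below every control for Col1a1, Col4a1, Fmod, Eln, Fbln2, Fbln5 and Sparc (17.9% of members, against 25.5% of all genes). In Col1a1, Eln and Sparc, CNT 1 lay within the range of the controls. CNT 3 lay above every control for Col6a3, Dcn, Fbln1, Fap, Thbs2, Mgp, Pdgfrb and Crabp2 (20.5%, against 28%). For Col6a3 and Pdgfrb this held on the brightest probe set only. Both shares were smaller than those of all genes. The span from CNT 2 to CNT 3 was widest for Aldh1a2, 3.54 log2, and it was 0.19 for Fmod. These sets were described after their values were seen, and no test was made on them.

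In 17 members more than 1 probe set was measured. The other probe sets had the same sign as the one used in all of them except Col6a2 and Col6a3, whose second probe sets were dim (means of 7.57 and 6.26) and had log2 fold changes of 0.02 and 0.04. Of the 60 probe sets, 56 had a negative log2 fold change. The 4 probe sets of Ogn ranged from -1.56 to -0.88, the 2 of Eln were at -1.51 and -1.42, and the 2 of Aspn at -1.82 and -1.62. The second probe set of Eln, unlike the first, did not overlap between the groups. For Col4a1 the second probe set, at -0.96 (SE 0.46), did not overlap between the groups either.

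**Figure D4:**
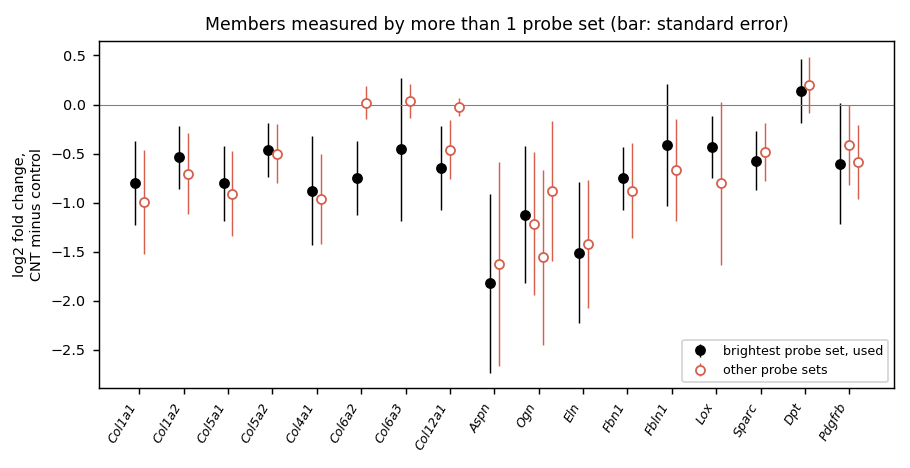
Log2 fold change (y axis, CNT minus control) with its SE for every probe set of the 17 members that have more than 1 (x axis). Filled black symbols are the brightest probe set, which was used, and open red symbols the others, which are near 0 for Col6a2, Col6a3 and the dimmest of Col12a1.

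Genes of the same pathway were counted from lists outside the 39. Of 20 measured genes that modify and process procollagen, 16 had a negative log2 fold change (median -0.23) and none passed limma's test in either direction. Serpinh1, the collagen chaperone of the endoplasmic reticulum, had a log2 fold change of -0.58 ± 0.26 (SE), with groups that did not overlap. Fkbp10 and P4ha3, which help collagen to fold and hydroxylate its prolines, had log2 fold changes of -0.66 ± 0.34 and -0.72 ± 0.38 (SE). Of 22 other collagens, 12 had a negative log2 fold change (median -0.09), Col11a1 of -0.70 (SE 0.21), Col8a1 of -0.79 (SE 0.33) and Col14a1 of -0.85 (SE 0.37) among them. None of these passed.

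Of 26 other matrix and fibroblast genes, 24 had a negative log2 fold change (median -0.41) and none passed. Fbn2, the second fibrillin, had a log2 fold change of -1.29 ± 0.48 (SE). Ltbp2 and Ltbp4, of the family of latent TGF-beta binding proteins, had -0.78 (SE 0.33) and -0.36 (SE 0.13). Of 14 genes of TGF-beta and PDGF signalling, which drives matrix synthesis, 10 had a negative log2 fold change (median -0.07) and none passed. Tgfb1 was higher in every CNT than in every control culture (log2 fold change 0.48, SE 0.15) and Tgfb2 lower in every one (-0.56, SE 0.26), as was Pdgfd (-0.56, SE 0.23). The signal of Pdgfd was dim, at 5.86 to 7.14 over the 6 arrays.

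Of 15 other markers of the meninges, 10 were negative, and the median log2 fold change was -0.02, near that of all genes. None passed. Zic1 and Zic4, transcription factors of the meninges and the dorsal cord, had log2 fold changes of -0.45 ± 0.14 and -0.86 ± 0.34 (SE), and Igfbp2 of -0.46 (SE 0.27). The signal of Zic1 was dim, at 6.24 to 7.05 over the 6 arrays. Of the 5 positive markers, Slc47a1, an organic cation exporter, had the highest log2 fold change, 1.15 (SE 1.10), and was named after its value was seen. It was at 7.83, 6.13 and 10.22 in control and at 8.62, 8.50 and 10.51 in CNT cultures, so that the groups overlapped. On the mean of this list CNT 2 was again lowest, at -0.63 relative to the control mean, and CNT 3 was highest, at 0.42. Of 12 smooth muscle and pericyte markers, 9 were negative, with a median of -0.54, and the list's mean in CNT 2 was -0.92 relative to the control mean. Tagln, an actin-binding protein of smooth muscle, had a log2 fold change of -0.67 ± 0.30 (SE). Abcc9, a potassium channel subunit of pericytes, had one of -1.43 (SE 0.81), and that of Des (desmin) was 0.22 (SE 0.13).

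Markers of other cells gave medians of 0.05 for 8 Schwann cell markers, 0.24 for 11 endothelial markers and -0.09 for 10 astrocyte markers. They were 0.04 for 10 oligodendrocyte markers, -0.08 for 12 neuron markers and 0.37 for 13 microglia and macrophage markers. No gene of these lists passed. The microglial genes Fcgr1a (log2 fold change 0.93, SE 0.23), Cd14 (0.63, SE 0.19) and Tyrobp (0.38, SE 0.21) were each higher in every CNT than in every control culture. In CNT 2 the mean of the astrocyte list was 0.06, of the neuron list -0.13, of the oligodendrocyte list 0.38 and of the endothelial list 0.39 relative to the control mean, beside -1.63 for the matrix genes.

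**Figure D5:**
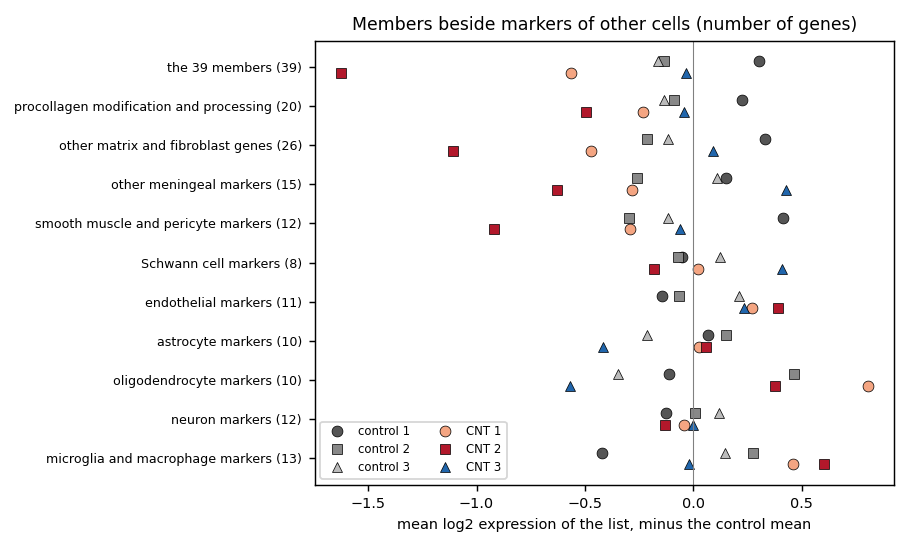
Mean log2 expression of each list (y axis, with the number of genes measured) on each array, minus the mean of the 3 control arrays (x axis). CNT 2 (red squares) is lowest for the 39 members, at -1.63, and highest for the microglia and macrophage markers, at 0.60.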

How the data were processed

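The microarray values of 3 control and 3 CNT cultures were analysed, 1 Affymetrix rat array per culture, each labelled from 100 ng of total RNA. The authors made the deposited log2 values with RMA (version not given in the sources used here), for probe sets of the manufacturer's definition. The methods name EntrezGene custom files and the rank product for the paper's own analysis. The rank product draws chance levels by permuting genes, and that test was not run here.

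The platform annotation names 1 gene for 20826 of the 31099 probe sets, several for 436 and none for 9780, while 57 are controls. Single-gene probe sets were kept, and the one with the highest mean represented each of 14217 genes. The values were not normalized again. Groups were compared by the moderated linear model of limma 3.58.1 (lmFit, eBayes; R 4.3.3), and p-values were adjusted after Benjamini and Hochberg across the 14217 genes, with 0.05 as threshold. Standard errors and confidence intervals are those of the moderated fit. Samples are labelled as biological replicates. The number of arrays limits the precision, and an exact two-sided permutation test of 3 against 3 cannot go below 0.1.

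The 39 members, their role groups and the 12 other lists were chosen with earlier results of these data known. Values on every array are given for members with an unadjusted p under 0.05, a fold below 0.5 or above 2 or groups that did not overlap, and for the member of highest mean in each role group. From each other list up to 3 genes of smallest unadjusted p were named where they bear on the text. The alternatives changed the moderation (trend, robust), the weights of arrays, the pairing (replicate block), the treatment of several probe sets (averaged, or each tested alone) and the dim genes (lowest 30% dropped). Others changed the scaling (quantile, cyclic loess, medians), left out single arrays, used the beta-actin difference as a covariate, or omitted control 1 with CNT 2. Promoter sequences were taken from RefSeq (GRCr8).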

Additional observations from a re-analysis of the deposited data

How the results depend on the processing

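No member passed the test under any of the 17 alternatives, and 2 genes of all 14217 did so without control 3 (0 to 2 without each array in turn). The median log2 fold change of the members was between -0.84 (array weights) and -0.62 (mean of a gene's probe sets) under the alternatives that keep all arrays, and between -1.05 and -0.24 without each array in turn. The number of members with every CNT below every control culture was 4. It was 8 with median centring (3.64% of all genes), and with every probe set by itself 7 of 60 probe sets, from 6 members, were so separated (2.43% of all probe sets). It was 4 to 32 without each array in turn. The count was 32 without CNT 3, where 8.17% of all genes were so separated, and 12 without control 3, where 7.72% were. Without control 1 and CNT 2 the median was -0.12 (0.03 over all genes), and 28 members were negative (share of all genes not counted). The role group medians were then -0.16 for small leucine-rich proteoglycans, -0.42 for elastic fibre genes and 0.0011 for mesenchymal and meningeal genes. The sign turned for Col6a3 (0.41), Lum (0.0251), Fbln1 (0.29), Lox (0.0161), Loxl1 (0.0474), Postn (0.0623), Mgp (0.13), Pdgfrb (0.14), Crabp2 (0.0962) and Aldh1a2 (0.0011). The cause was not tested. Leaving out each array in turn turned the sign of 6 members, with ranges of -1.11 to 0.38 for Col6a3, -1.08 to 0.23 for Fbln1, -1.35 to 0.0808 for Postn, -0.79 to 0.18 for Mgp, -1.11 to 0.13 for Pdgfrb and -0.0969 to 0.41 for Dpt. For Dpt it turned without control 3 and without CNT 1, and for the others without CNT 2. These turns hold for the brightest probe set of each gene. The other probe sets, as of Fbln1 and Pdgfrb, were not fitted with an array left out.
The numbers of the cultures were not shown to pair them: the correlation of deviations from the group means was -0.13, 0.36 and 0.51 for equal numbers, and 0.68 for control 2 with CNT 1. With the replicate block the median was -0.64 and no gene passed, with 6 members lower at an unadjusted p under 0.05 (1.26% of all genes).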
